A study of Mus musculus with 7 samples.

Results

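The Ly6, Slurp and Lypd genes encode small proteins with the 3-finger fold of the Ly6/uPAR family. In the 10 genes described here, Slurp1, Lypd2, Lypd3, Lypd5, Ly6a, Ly6c1, Ly6d, Ly6e, Ly6g6c and Ly6k, expression was read from bulk RNA of mouse skin tumours. They were taken by name from a gene count table of 55423 features, and all 10 were among the 24433 genes that passed the filter on low counts. The tumours came from Ivl:BRAFV600E mice, in which a tamoxifen-inducible Cre under the involucrin promoter switches on BRAFV600E in IVL+ skin cells, and from Ivl:BRAFV600E-SOX2LSL mice, which also carry an allele that expresses SOX2 after recombination. All mice received topical tamoxifen at 7 to 10 weeks of age, tumours grew until clinical endpoint, and the labels call them cutaneous squamous cell carcinomas. The comparison asks how adding SOX2 to BRAFV600E goes with the level of each gene. It used 3 Ivl:BRAFV600E tumours (B1, B2 and B3, from 2 females and 1 male) and 3 Ivl:BRAFV600E-SOX2LSL tumours (S1, S2 and S3, from 2 males and 1 female), each from a separate mouse. The study's list of mice puts every Ivl:BRAFV600E-SOX2LSL collection sooner after induction than every Ivl:BRAFV600E collection, and gives 2 of the Ivl:BRAFV600E mice a tdRFP allele, so genotype and time cannot be told apart.

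Most Ly6/uPAR proteins are held at the cell surface by a lipid (GPI) anchor, while SLURP1 and SLURP2 are secreted. SLURP1 binds nicotinic acetylcholine receptors on keratinocytes, and its loss in people causes mal de Meleda, a thickening of the palms and soles. Ly6d and Lypd3, also called C4.4A, are surface proteins of stratified epithelium. Ly6a, known as Sca-1, and Ly6c1, which with Ly6c2 forms the Ly6C antigen, are best known from stem cells, blood vessels, stroma and blood cells, and Ly6e is an interferon-induced gene.

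Counts on genes came to between 23565432 and 31152826 per tumour. Levels are in CPM, counts per 1 M of a library scaled by TMM, in which 3 counts, taken as the smallest level that can be told from 0, stood for 0.0839 to 0.143 CPM (counting error only). Sox2 itself was at 0.238 to 0.716 CPM in the Ivl:BRAFV600E tumours and at 155.1 to 182.0 CPM in the Ivl:BRAFV600E-SOX2LSL tumours. S1 stood apart from S2 and S3: among the 3 Ivl:BRAFV600E-SOX2LSL tumours it was the lowest in 5 members and the highest in 4. Fold changes of the members are therefore given with and without S1. In bulk RNA, fewer cells of a type and less RNA per cell cannot be told apart.

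Lypd3, Lypd5 and Ly6g6c had lower levels in every Ivl:BRAFV600E-SOX2LSL tumour and have an entry in the RefSeq promoter table (GRCm38.p6), so the 250 bases before their RefSeq start site are shown, 5′ to 3′ on the gene's strand. Capitals mark CANNTG (the E-box) and TATAAA (the TATA box), searched on both strands (CANNTG reads the same on each). The windows are chr7:24636320-24636569 for Lypd3, chr7:24348946-24349195 for Lypd5 and chr17:35067075-35067324 for Ly6g6c, all on the plus strand.
Lypd3: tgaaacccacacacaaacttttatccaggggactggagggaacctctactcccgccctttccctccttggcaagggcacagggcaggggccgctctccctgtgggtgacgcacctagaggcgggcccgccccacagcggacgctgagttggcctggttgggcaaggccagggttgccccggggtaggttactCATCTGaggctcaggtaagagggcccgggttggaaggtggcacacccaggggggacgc
Lypd5: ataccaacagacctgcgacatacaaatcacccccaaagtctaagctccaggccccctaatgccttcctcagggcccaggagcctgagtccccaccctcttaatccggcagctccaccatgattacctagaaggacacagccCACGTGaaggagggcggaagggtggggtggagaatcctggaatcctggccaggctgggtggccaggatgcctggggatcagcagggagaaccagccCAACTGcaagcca
Ly6g6c: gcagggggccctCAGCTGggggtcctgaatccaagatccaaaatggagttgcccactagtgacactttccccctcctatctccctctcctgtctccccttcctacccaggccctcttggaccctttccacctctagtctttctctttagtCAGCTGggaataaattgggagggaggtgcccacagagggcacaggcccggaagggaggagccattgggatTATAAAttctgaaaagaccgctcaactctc
All 3 windows held an E-box, as did 66.2% of 32851 promoter windows of the same length. Ly6g6c alone of the 3 held TATAAA, which 12.4% of all windows did, and its first base lay 30 bases before the RefSeq start site. The Ly6g6c window lies inside the gene as GENCODE M21 places it (35065388 to 35070050). RefSeq and GENCODE thus differ in the start of this gene, and its window is that of the RefSeq start only. Neither TGANTCA (the AP-1 motif, in 6.75% of all windows) nor the SOX core letters ACAAAG (16.5%) and ACAATG (10.7%) were found in these 3 windows. Of the 10 members 4 had an entry, Ly6c1 being the other one, with 2 start sites. ACAAAG was found in the window of 1 of them and TATAAA in that of the other. Slurp1, Lypd2, Ly6a, Ly6d, Ly6e and Ly6k are the remaining members.

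Slurp1, the secreted member, had the largest log2 fold change in size of the 10 members in the fit with all 6 tumours. Without S2, Lypd2, which had few reads, was at -5.67 and Slurp1 at -5.31. The level of Slurp1 was 132.0, 170.9 and 121.4 CPM in B1, B2 and B3, and 0.392, 2.85 and 6.83 CPM in S1, S2 and S3. Every Ivl:BRAFV600E tumour was far above every Ivl:BRAFV600E-SOX2LSL tumour, and S1 was the lowest. The mean fell from 141.4 ± 26.1 to 3.36 ± 3.25 CPM (SD, n = 3 each). By edgeR this was -5.41 on the log2 scale (SE 0.87, adjusted p = 0.0277), and -4.88 without S1 (SE 0.41, adjusted p = 0.00324, with 8.66e-12 to 0.122 over all alternatives run). The call did not hold when B1 (edgeR adjusted p = 0.122), B2 (0.0902), B3 (0.0676) or S2 (0.075) was left out, while the log2 fold change stayed between -6.46 and -4.88. Among the 369 genes called lower, 16 had a log2 fold change below that of Slurp1. Slurp1 (ENSMUSG00000022596) lies on chromosome 15 of GRCm38, at 74724318 to 74728034 on the minus strand, and its exons share 322 bases with those of Them6 on the opposite strand. Use of strand in the counting is not given in the sources used here, and Them6 had 3.82 to 7.53 CPM over the 6 tumours and did not pass the test (log2 fold change -0.42, edgeR adjusted p = 0.369).

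**Figure D1:**
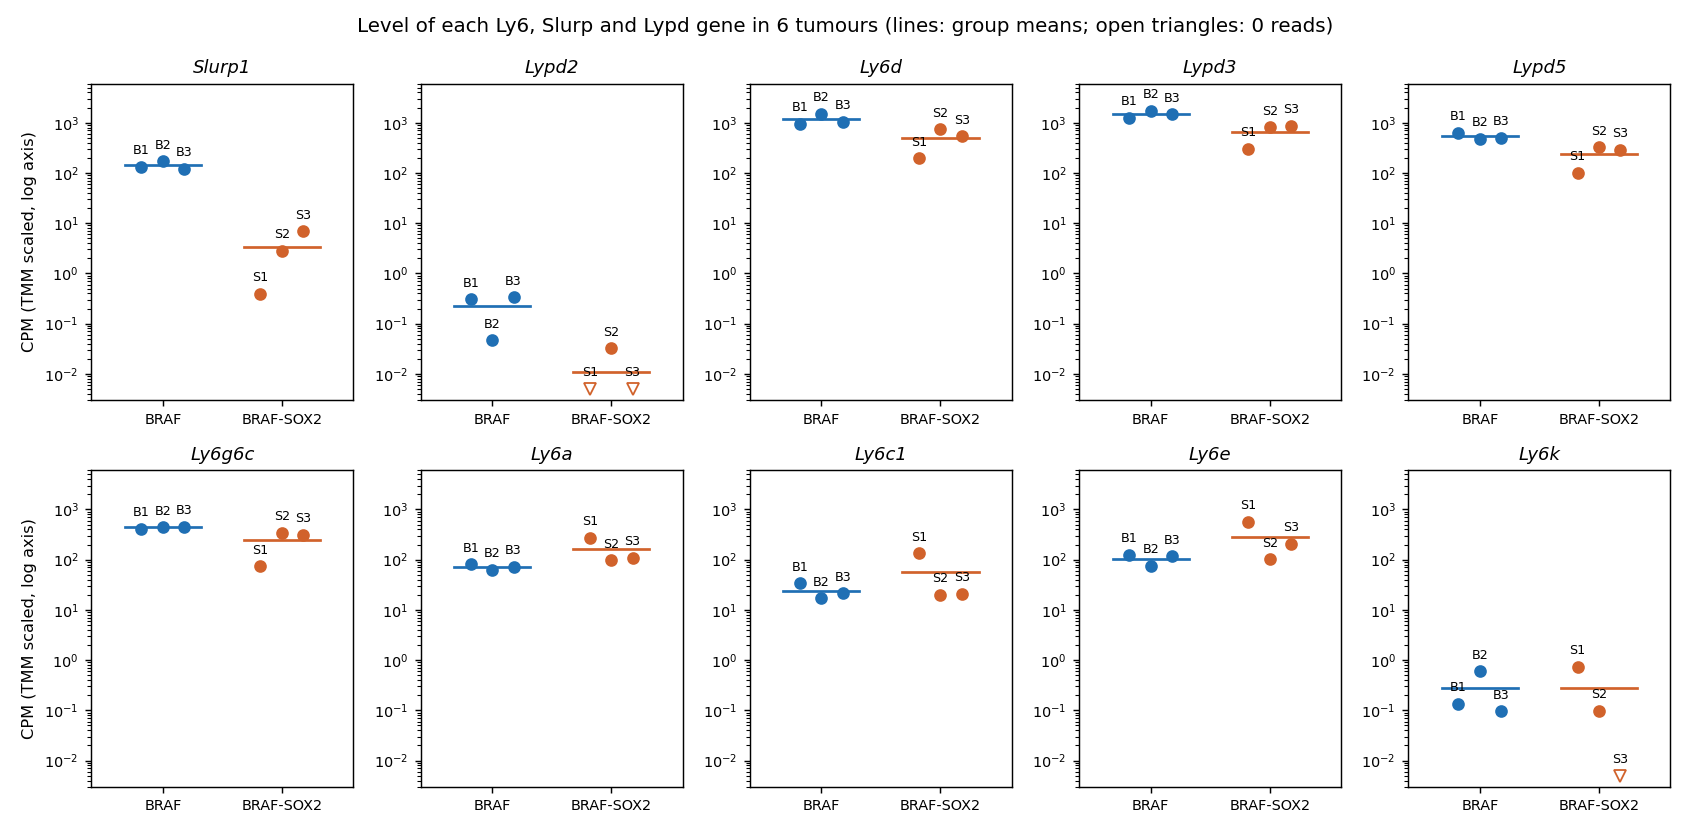
Each panel plots 1 gene, with CPM after TMM on a log axis, for the 3 Ivl:BRAFV600E (BRAF) and the 3 Ivl:BRAFV600E-SOX2LSL (BRAF-SOX2) tumours, with points for tumours, lines for group means and open triangles for tumours with 0 reads. Slurp1 lies between 121.4 and 170.9 CPM in the first group and between 0.392 and 6.83 CPM in the second.

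Lypd2, the neighbour of Slurp1 on chromosome 15 (74732247 to 74734329, minus strand), was near the limit of detection. It had 9, 1 and 7 reads in B1, B2 and B3 and 0, 1 and 0 reads in S1, S2 and S3. No Ivl:BRAFV600E-SOX2LSL tumour and not B2 reached 3 reads. The pooled rate was 22.3 times higher in the Ivl:BRAFV600E tumours, with an exact 95% interval of 3.49 to 930.3 that covers counting error only. Between tumours the difference did not pass the test (log2 fold change -3.95, standard error 1.26, edgeR adjusted p = 0.114), nor did it without S1 (-3.44, adjusted p = 0.199, with 0.0598 to 0.286 over the alternatives).

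The GPI-anchored members Ly6d, Lypd3, Lypd5 and Ly6g6c were all lower in each Ivl:BRAFV600E-SOX2LSL tumour than in any Ivl:BRAFV600E tumour. None of the 4 passed the edgeR test with all 6 tumours. Lypd3 and Lypd5 passed it without S1, where their log2 fold changes were smaller in size and the spread was smaller too.

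Ly6d (chromosome 15, 74762056 to 74763620, minus strand) had 957.3, 1525.4 and 1033.6 CPM in B1, B2 and B3 and 195.4, 739.2 and 534.1 CPM in S1, S2 and S3. The groups did not overlap and S1 was the lowest. In edgeR's fit the difference was -1.26 on the log2 scale (SE 0.46, adjusted p = 0.145) with all tumours and -0.88 (SE 0.25, adjusted p = 0.0869) without S1, and adjusted p ran from 0.0141 to 0.325 over the alternatives.

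Lypd3 (chromosome 7, 24636550 to 24641118, plus strand) had the highest mean CPM of the members in both groups, at 1234.4, 1728.1 and 1476.2 in B1, B2 and B3 and 299.2, 805.4 and 869.2 in S1, S2 and S3. The groups did not overlap, S2 and S3 were close and S1 was the lowest. Its log2 fold change in edgeR, -1.17 (SE 0.39, adjusted p = 0.123), was -0.82 (SE 0.18, adjusted p = 0.0413) without S1, and the alternatives gave adjusted p from 0.00941 to 0.276. Its exons share 225 bases with the antisense gene Gm26550.

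Lypd5 (chromosome 7, 24349196 to 24355109, plus strand) had 624.8, 482.2 and 501.8 CPM in B1, B2 and B3 and 101.4, 322.5 and 288.8 CPM in S1, S2 and S3. The groups did not overlap, and S1 was again the lowest. EdgeR gave -1.17 on the log2 scale (SE 0.40, adjusted p = 0.128) with all tumours and -0.81 (SE 0.15, adjusted p = 0.0288) without S1, within 0.00567 to 0.303 for adjusted p over the alternatives. The ratio of Lypd3 to Lypd5 CPM ran from 1.98 to 3.58 in the Ivl:BRAFV600E tumours and from 2.5 to 3.01 in the Ivl:BRAFV600E-SOX2LSL tumours, so these ranges overlapped.

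Ly6g6c (chromosome 17, 35065388 to 35070050, plus strand) was the steadiest member in the Ivl:BRAFV600E tumours, at 417.1, 444.0 and 455.7 CPM, and had 74.3, 340.1 and 316.3 CPM in S1, S2 and S3. S2 and S3 lay close below the Ivl:BRAFV600E tumours and S1 far below them. On the log2 scale edgeR gave -0.85 (SE 0.49, adjusted p = 0.319), and -0.42 (SE 0.11, adjusted p = 0.0791) without S1, with adjusted p from 0.00918 to 0.474 over the alternatives.

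Markers of the upper epidermis moved with these members. Of 20 suprabasal and cornified-layer genes, 3 passed the edgeR test, all lower (Dsg1a and Sbsn, which belong to the suprabasal layers, and Calml3, a calmodulin-like gene), and the median log2 fold change was -1.83 against 0.04 over all tested genes. At an unadjusted p under 0.05 stood 14 of the 20, and DESeq2 called 13. Their summed level was 101329.3 to 123245.6 CPM in the Ivl:BRAFV600E tumours and 5345.6, 29752.4 and 34884.8 CPM in S1, S2 and S3, and Krt1 and Krt10, the keratins of those layers, were the most abundant. Without S1, 11 of the 20 passed and the median was -1.41, while 1 passed without S3 and 0 without B1, B2, B3 or S2. With sex as a covariate Dsg1a, Sbsn and Calml3 were no longer called (edgeR adjusted p = 0.115, 0.0523 and 0.0947). Of these 20 genes, 1, Krt2 (log2 fold change -7.22), had a log2 fold change below that of Slurp1, whereas 13 were below Ly6d and 14 below Lypd3. Relative to the list's sum (set to 1000), Slurp1 was at 1.12 to 1.39 in the Ivl:BRAFV600E tumours and at 0.0733 to 0.196 in the Ivl:BRAFV600E-SOX2LSL tumours. Ly6d went the other way, from 9.45 to 12.4 on that scale up to 36.5, 24.8 and 15.3 in S1, S2 and S3. Pan-epithelial genes, led by Krt14 and Dsp, summed to 35347.7 to 62250.3 CPM and 19817.2 to 44471.3 CPM, with a median of 0.32 on the log2 scale and 1 of 12 called (Epcam, higher), 9 at an unadjusted p under 0.05 and 6 by DESeq2. EdgeR called 3 of them without S1 and 0 without any 1 of the others, and Epcam was not called with sex as a covariate (edgeR adjusted p = 0.0838). The part of these markers in the members' differences was not tested.

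Ly6a (chromosome 15, 74994877 to 74998031, minus strand) was the only member higher in every Ivl:BRAFV600E-SOX2LSL tumour. It had 81.4, 63.0 and 71.9 CPM in B1, B2 and B3 and 275.5, 97.5 and 107.9 CPM in S1, S2 and S3. S2 and S3 lay just above the Ivl:BRAFV600E tumours and S1 well above. With all tumours edgeR gave a log2 fold change of 1.15 (SE 0.40, adjusted p = 0.13), and without S1 one of 0.51 (SE 0.13, adjusted p = 0.075, with 0.0378 to 0.945 over the alternatives).

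Ly6e (chromosome 15, 74955051 to 74959905, plus strand) had 123.5, 74.5 and 116.8 CPM in B1, B2 and B3 and 559.5, 102.2 and 205.4 CPM in S1, S2 and S3. The groups overlapped, since S2 lay below B1 and B3. EdgeR's log2 fold change of 1.46 (SE 0.57, adjusted p = 0.168) came to 0.55 (SE 0.32, adjusted p = 0.354) without S1, and adjusted p lay between 0.0485 and 0.873 over the alternatives.

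Ly6c1 (chromosome 15, 75044018 to 75048830, minus strand) had 33.9, 17.0 and 21.4 CPM in B1, B2 and B3 and 133.3, 19.7 and 21 CPM in S1, S2 and S3. Only S1 lay outside the range of the Ivl:BRAFV600E tumours. EdgeR gave 1.27 on the log2 scale (SE 0.75, adjusted p = 0.327), and the sign changed without S1, to -0.25 (SE 0.28, adjusted p = 0.641, with 0.0998 to 0.988 over the alternatives). Of its windows of 100 bases 10.1% also occur in transcripts of Ly6a or Ly6c2, as do 1.45% of those of Ly6a in Ly6c1 (the reads are pairs of 150 bases). How reads that match several genes were counted is not given in the sources used here, so the split between these genes is uncertain. The other 8 members shared no such window with another gene.

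Ly6k (chromosome 15, 74796874 to 74799986, minus strand), known from the testis, had 4, 13 and 2 reads in B1, B2 and B3 and 26, 3 and 0 reads in S1, S2 and S3. S1 held 26 of the 29 reads of its group. The rate in the Ivl:BRAFV600E tumours was 0.858 times that in the others (exact 95% interval 0.455 to 1.58, counting error only), and no difference was detectable (log2 fold change 0.05, standard error 1.25, edgeR adjusted p = 0.985). Without S1 it was -2.33 (edgeR adjusted p = 0.348, with 0.154 to 1.0 over the alternatives). Its exons share 395 bases with the antisense gene Gm17189.

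**Figure D2:**
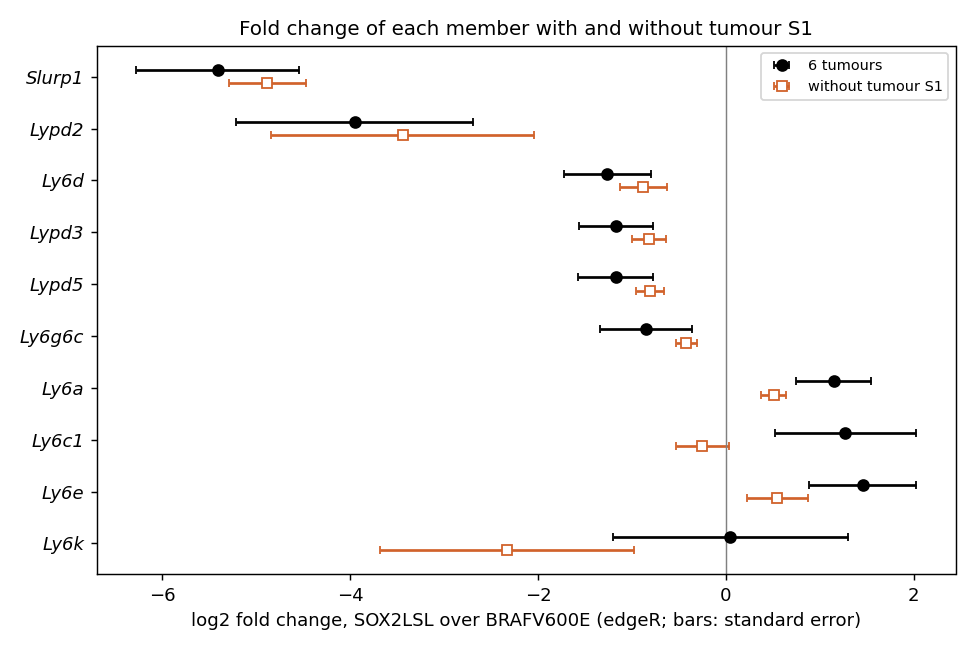
The horizontal axis is the log2 fold change of Ivl:BRAFV600E-SOX2LSL over Ivl:BRAFV600E tumours from edgeR, with the standard error as bars, for each member with all 6 tumours (filled circles) and without S1 (open squares). Slurp1 is at -5.41 and -4.88, Ly6c1 moves from 1.27 to -0.25 and Ly6k from 0.05 to -2.33.

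Counted together, 1 of the 10 members (Slurp1) had an edgeR adjusted p under 0.05, where 3.90% of all tested genes did (1.51% lower and 2.39% higher). In 6 members every Ivl:BRAFV600E-SOX2LSL tumour lay below every Ivl:BRAFV600E tumour, and in 1 member every one lay above, where 16.0% and 18.2% of all tested genes did so. The 6 include Lypd2, whose B2 and S2 each had 1 read and differ only by library scaling, so 5 members were apart at measurable levels. At an unadjusted p under 0.05 stood 7 of the 10 members and 25.7% of all tested genes. The median log2 fold change of the 10 was -1.01, and -0.82 without S1. Without S1, edgeR called 3 members (Slurp1, Lypd3 and Lypd5), where it called 6.69% of the genes tested. DESeq2 on all 6 tumours called 6 members, Slurp1, Lypd3, Lypd5 and Ly6d lower and Ly6a and Ly6e higher, where it called 18.2% of the genes with an adjusted p. On counts simulated for this comparison 56 of the 152 calls of DESeq2 were false, against 6 of 77 of edgeR. In that simulation 200 of 23079 genes were changed, and the spread per gene was the one edgeR estimated. The share of false calls depends on this setting, so it does not measure how many of the member calls are false. Scaling on pan-epithelial genes called 4 members and 11.7% of all genes tested, and 5 members and 22.2% when S1 was left out as well (an alternative added after the data were seen). This scaling weighs its 12 genes alike, among them Epcam, which was itself higher (log2 fold change 3.67 by DESeq2). Of the 12, 8 had an edgeR log2 fold change above 0 and 4 below it, with Krt14 at -0.65 and Dsp at -0.84. The part of Epcam in these calls was not tested.

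Ly6a, Ly6c1 and Ly6e together held 6.63%, 3.43% and 5.53% of the members' reads in B1, B2 and B3 (95% Wilson intervals 6.48 to 6.78%, 3.32 to 3.54% and 5.37 to 5.69%, which cover counting error only). In S1 they held 59.1% (58.7 to 59.4%), in S2 9.03% (8.83 to 9.24%) and in S3 14.2% (14.0 to 14.5%). The spread between tumours of a group was far wider than these intervals. The summed level of the 3 genes was 238.8, 154.5 and 210.1 CPM in B1, B2 and B3 and 968.3, 219.4 and 334.3 CPM in S1, S2 and S3, so S2 lay within the Ivl:BRAFV600E range. The summed level of Slurp1, Ly6d, Lypd3, Lypd5 and Ly6g6c was 3365.5, 4350.5 and 3588.7 CPM against 670.7, 2210.1 and 2015.2 CPM, lower in each of the 3. The ratio of Ly6d to Ly6e CPM was 7.75, 20.5 and 8.85 in B1, B2 and B3 and 0.349, 7.23 and 2.6 in S1, S2 and S3.

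Other cell types that carry Ly6a, Ly6c1 or Ly6e were followed by marker lists. The endothelial list, led by Pecam1 and Vwf, summed to 226.3 to 249.5 CPM and 231.4 to 283.0 CPM, with 0 of 12 genes called by edgeR, 2 at an unadjusted p under 0.05 and 1 called by DESeq2 (median log2 fold change 0.19, and 0.09 without S1). The macrophage and monocyte list, led by Lyz2 and Csf1r, summed to 95.4 to 202.8 CPM and to 783.1, 377.2 and 249.6 CPM in S1, S2 and S3, with 2 of 13 called higher (Ptprc and Csf1r), 12 at an unadjusted p under 0.05 and 10 called by DESeq2 (median 1.91, and 1.14 without S1). Neither Ptprc nor Csf1r was called when any 1 tumour other than S1 was left out or with sex as a covariate (edgeR adjusted p = 0.0775 and 0.0717), and Ptprc was not called with other scalings either (0.0501 to 0.0877). The fibroblast list, led by Col1a1 and Col3a1, summed to 807.9 to 5220.0 CPM and 4126.2 to 8581.1 CPM, with 0 of 12 called by edgeR and 3 each at an unadjusted p under 0.05 and by DESeq2 (median 1.03, and 0.76 without S1). The interferon-stimulated list, led by Irf1, summed to 24.7 to 31.3 CPM and to 78.3, 35.8 and 33.3 CPM in S1, S2 and S3, with 0 of 20 called by edgeR, 5 at an unadjusted p under 0.05 and 3 by DESeq2 (median 0.88, and 0.37 without S1).

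S1 had the highest sum of the 6 tumours in the macrophage, fibroblast and interferon lists, as it did for Ly6a, Ly6c1 and Ly6e, and not in the endothelial list. The T lymphocyte list, led by Cd5 and Il7r, summed to 12.8 to 20.1 CPM and 15.3 to 25.1 CPM, with 0 of 12 called by edgeR, 2 at an unadjusted p under 0.05 and 0 by DESeq2 (median 0.74, and 0.83 without S1). The neutrophil list, led by S100a9 and S100a8, summed to 332.8 to 1211.2 CPM and 1459.4 to 2125.9 CPM, with 1 of 9 called higher (Ltf, median 1.08, and 1.52 without S1), 4 at an unadjusted p under 0.05 and 3 by DESeq2. Ltf was not called without B1 or without B2. S100a9 had means of 297.4 CPM in the Ivl:BRAFV600E and 629.9 CPM in the Ivl:BRAFV600E-SOX2LSL tumours, and S100a8 of 335.8 and 555.9 CPM. Ly6g, also on this list, had 0 to 7 reads per tumour. The sum follows its most abundant genes, so it is not a measure of the number of neutrophils. No gene tested on these lists was at 0 in all 6 tumours. The part of these markers in the members' differences was not tested.

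**Figure D3:**
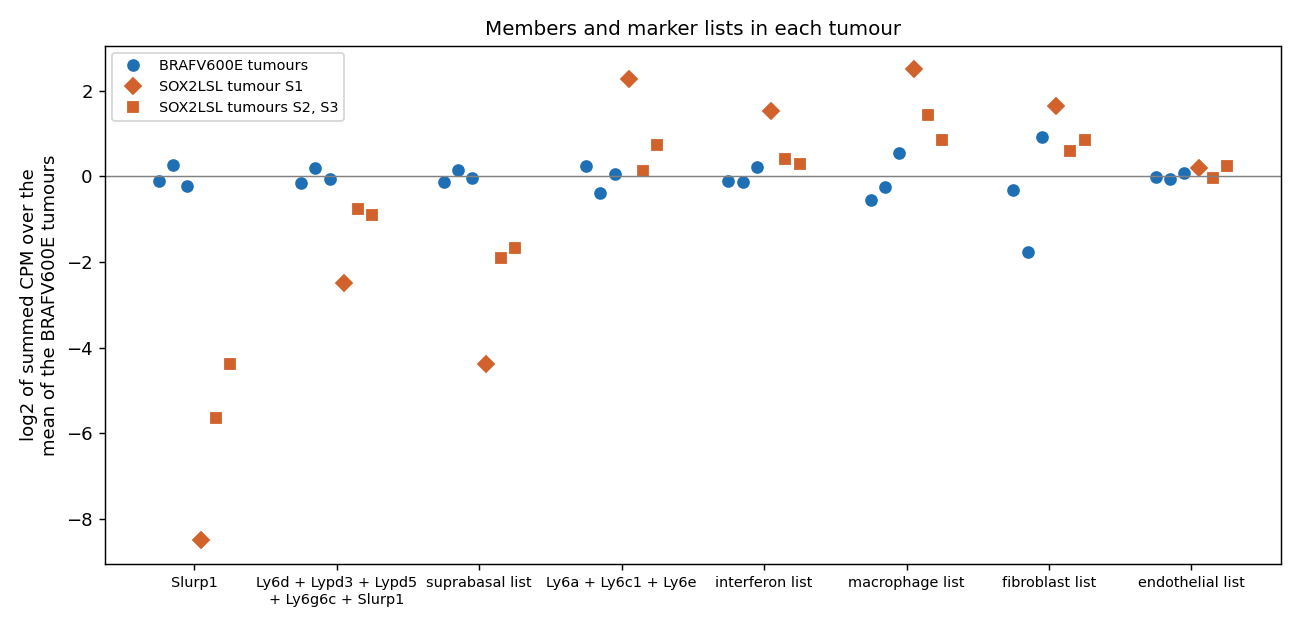
The vertical axis is the log2 of a CPM sum over its mean in the Ivl:BRAFV600E tumours, for Slurp1, for the sum of Ly6d, Lypd3, Lypd5, Ly6g6c and Slurp1, for Ly6a, Ly6c1 and Ly6e, and for 5 marker lists, with circles for Ivl:BRAFV600E tumours, diamonds for S1 and squares for S2 and S3. S1 has the lowest suprabasal sum (5345.6 CPM) and the highest macrophage (783.1 CPM) and interferon (78.3 CPM) sums.

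Levels of different members were compared per kb of exon, with the length taken over all annotated exons of a gene. That length was 2933 bases for Slurp1 and 3784 for Ly6e, against 679 for Lypd2 and 744 for Ly6d. Which transcripts the tumours use was not tested. A gene read mostly from a shorter transcript would stand higher, so the order is rough. In the Ivl:BRAFV600E tumours the order was Ly6d (1575.4 ± 414.4 CPM per kb, SD, n = 3), Lypd3 (897.3 ± 149.7), Ly6g6c (321.1 ± 14.5), Lypd5 (239.5 ± 34.5), Ly6a (59.8 ± 7.67), Slurp1 (48.2 ± 8.88), Ly6e (27.7 ± 7.02) and Ly6c1 (14.4 ± 5.23), with Lypd2 and Ly6k under 1 CPM per kb. The ranges of neighbours overlapped between Ly6a and Slurp1, between Ly6e and Ly6c1 and between Lypd2 and Ly6k. In the Ivl:BRAFV600E-SOX2LSL tumours Ly6d (658.0 ± 369.1 CPM per kb) and Lypd3 (399.0 ± 189.4) were still first. Ly6g6c (178.2 ± 107.6), Ly6a (133.0 ± 82.9), Lypd5 (106.1 ± 53.2), Ly6e (76.4 ± 63.4) and Ly6c1 (34.6 ± 38.9) followed, and the range of each of these 7 overlapped that of its neighbour. Slurp1 came eighth, at 1.14 ± 1.11 CPM per kb, with a range apart from that of Ly6c1. Without S1, Lypd5 (136.5 CPM per kb) stood above Ly6a (85.2), as in the Ivl:BRAFV600E tumours, and Ly6e (40.6) and Ly6c1 (11.8 in S2 and 12.5 in S3) were lower than with it.

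Of 33 other genes of the Ly6/uPAR family 25 were tested, and edgeR called 0 of them and 3.90% of all tested genes. Their median log2 fold change was -0.27. At an unadjusted p under 0.05 stood 10 of them and 25.7% of all tested genes. DESeq2 called 7 of them and 18.2% of the genes with an adjusted p. Without S1 edgeR called 3, Slurp2, Pinlyp and Ly6g6e, and 6.69% of the genes tested. The 3 with the highest mean CPM over all 6 tumours were Pinlyp, Slurp2 and Psca. Slurp2, the other secreted SLURP, had 86.8, 95.9 and 110.6 CPM in B1, B2 and B3 and 0.112, 2.95 and 13.7 CPM in S1, S2 and S3. The groups did not overlap and S1, S2 and S3 stood in the same order as for Slurp1. EdgeR put it at -4.15 on the log2 scale (SE 1.17, adjusted p = 0.09), and at -3.57 (adjusted p = 0.0199) without S1. Pinlyp, a phospholipase inhibitor with the family's domain, had 92.8, 127.9 and 108.4 CPM against 12.0, 46.0 and 41.5 CPM (log2 fold change -1.73, edgeR adjusted p = 0.0775, and -1.33 with adjusted p = 0.00866 without S1). Psca, prostate stem cell antigen, had 25.9, 41.0 and 26.1 CPM against 97.9, 19.1 and 54.0 CPM, which overlapped (log2 fold change 0.88, edgeR adjusted p = 0.331, and 0.24 with adjusted p = 0.777 without S1).

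Of 16 nicotinic acetylcholine receptor subunits, the family to which SLURP proteins bind, 12 were tested and 1 was called, Chrna1, the alpha subunit of the muscle receptor. It had 0.136, 0.0462 and 0.095 CPM in B1, B2 and B3 and 3.67, 3.85 and 0.614 CPM in S1, S2 and S3 (log2 fold change 4.77, standard error 0.84, edgeR adjusted p = 0.0332). Without S1 it was 4.48 (edgeR adjusted p = 0.0326), but the call was lost without B1 (adjusted p = 0.139), B2 (0.12), B3 (0.0914) or S2 (0.0731), with limma voom (0.0883) and with sex as a covariate (0.0762). DESeq2 called 2 subunits, Chrna1 and Chrnb1, the beta subunit of the muscle receptor, which had 0.955, 0.924 and 0.76 CPM in B1, B2 and B3 and 8.2, 3.56 and 1.77 CPM in S1, S2 and S3 (edgeR log2 fold change 2.35, adjusted p = 0.0634). Without S3 edgeR called 2 subunits as well. Skeletal-muscle genes, led by Ttn and Acta1, moved in the same direction, with 11 of 13 called higher (12 by DESeq2), a median of 7.94 on the log2 scale, and sums of 4.9 to 16.6 CPM against 3096.9, 3256.1 and 794.5 CPM. The muscle genes called were 0, 1, 4 and 6 without B1, B2, B3 and S2, and 12 and 11 without S1 and S3. Their part in the Chrna1 difference was not tested. Chrna7, the subunit of the receptor best known as a SLURP1 target, was at 0 to 0.307 CPM and 0.112 to 0.397 CPM and did not pass the test (edgeR adjusted p = 0.648).

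Along chromosome 15, 7 members lie between Psca and Gpihbp1 (74714839 to 75599481), where 28 of 50 annotated genes were tested and Slurp1 alone was called. Of the 28, 16 had a log2 fold change below 0. Slurp1, Lypd2, Slurp2, Lynx1 and Ly6d had log2 fold changes below 0, and Lynx1, a membrane-anchored modulator of nicotinic receptors that lies between Slurp2 and Ly6d, stood at -0.34 (standard error 0.17, edgeR adjusted p = 0.259, and -0.42 without S1), far from its neighbour Slurp2 at -4.15. Ly6e, Ly6i, Ly6a, Ly6c1, Ly6c2 and Ly6g had log2 fold changes above 0 with all 6 tumours. Ly6g rested on 0, 1 and 1 reads in B1, B2 and B3 and 7, 6 and 5 reads in S1, S2 and S3. The signs did not divide the stretch cleanly, as Psca (0.88) stood above 0 before Slurp1, Gm28502 (-1.33) below 0 between Ly6c1 and Ly6c2, and Ly6f (-1.88), Ly6h and Gpihbp1 (-0.46) below 0 beyond Ly6g. Ly6h rested on 10, 9 and 2 reads in B1, B2 and B3 and 1, 0 and 0 reads in S1, S2 and S3 (edgeR adjusted p = 0.0765). Between Ly6d and Ly6e, Gml (-0.48), Gml2 (-0.99), Cyp11b1 (-1.92) and 2010109I03Rik (-1.54) were below 0, while Gm39556 (2.45, edgeR adjusted p = 0.0791) and Ly6k (0.05) were above it. None of the genes named here besides Slurp1 passed the test, and the sign of Ly6c1 turned without S1 (-0.25). Around Lypd5 and Lypd3 on chromosome 7 edgeR called 0 of 20 tested genes, and around Ly6g6c on chromosome 17 it called 0 of 6.

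**Figure D4:**
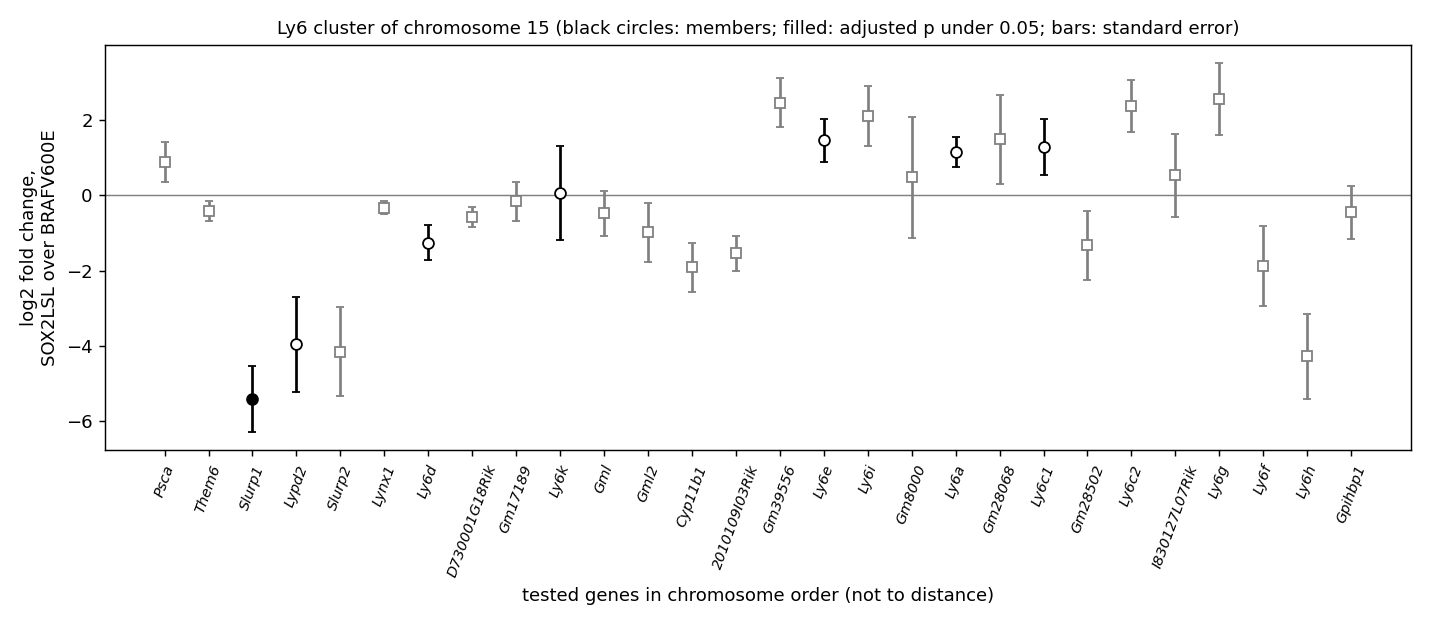
The horizontal axis lists the 28 tested genes from Psca to Gpihbp1 in chromosome order, and the vertical axis gives the log2 fold change of Ivl:BRAFV600E-SOX2LSL over Ivl:BRAFV600E tumours with its standard error, members as circles and other genes as squares. Slurp1 (-5.41, filled) passed the test, and Ly6e (1.46), Ly6a (1.15) and Ly6c1 (1.27) lie above 0.

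The 3 genes with a pattern over the 6 tumours most like that of Slurp1, among 8651 genes with a mean of at least 10 CPM, were Aurkaip1, Mt4 and Aph1b (Pearson r of log2 CPM 0.9973, 0.9968 and 0.9967). Mt4, a metallothionein of stratified epithelium, had a log2 fold change of -5.74 (edgeR adjusted p = 0.0266), close in size to that of Slurp1. Mt4 was called in 2 of the 6 fits that leave out 1 tumour but not with sex as a covariate (0.0565). Aurkaip1 (-0.36, edgeR adjusted p = 0.141) and Aph1b (-0.57, edgeR adjusted p = 0.0815) had only small differences between the groups. For Ly6a the 3 were Pml, an interferon-induced gene (0.9994), Rab11fip5 (0.9967) and Far1 (0.9967), none of which passed the test. These values describe 6 points that share 2 genotypes and the extreme tumour S1, and they were the highest among many genes.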

How the data were processed

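RNA of mouse skin tumours was sequenced after depletion of ribosomal RNA. According to the submitters' processing notes and the methods, the authors trimmed reads with Trim Galore, aligned them to GRCm38 with HISAT2 2.1.0, counted them with featureCounts (Subread 1.6.3) and deposited raw read counts per gene. Strand and multimapping settings are not given in the sources used here, so antisense and near-identical genes are uncertain. The labels number 4 Ivl:BRAFV600E and 3 Ivl:BRAFV600E-SOX2LSL tumours but name no mice. The 6 columns were therefore assigned from the mouse names in the study's source data, and the test planned on the labelled tumours was run on 3 against 3. A further 1 column of values matched no listed mouse and was not used.

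Genes that reached 5 reads in 1 or more tumours were tested with edgeR 4.0.16 (TMM, quasi-likelihood test, Benjamini-Hochberg adjustment over all tested genes, threshold 0.05) in R 4.3.3. CPM are scaled by TMM, with a prior count of 2 on the log2 scale. Positions and exon lengths are from GENCODE M21. DESeq2 1.42.0, limma 3.58.1, other scalings and filters, sex as a covariate and each tumour left out were alternatives. The members and lists were chosen with earlier results of these data known. All members are named, along with the called genes of the family, receptor and cluster lists (or the 3 most abundant of the first 2), the 2 most abundant genes of each marker list and the 3 genes most like Slurp1 and Ly6a. Some results under this rule are left out here. Called list genes, Krt2, Them6, Lynx1, Chrna7, Chrnb1, Ly6g6e and neighbours in the cluster were chosen after their values were seen.

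Counts were simulated for this comparison (23079 genes, 200 of them changed, with the spread per gene that edgeR estimated). EdgeR recovered 4 of 70 genes changed by 1 on the log2 scale and 40 of 68 changed by 3. It made 6 false calls among 77, while DESeq2 made 56 false calls among 152. The limits for passing this test were set after its output was seen, because the first limit, on the number recovered, was not met.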

Additional observations from a re-analysis of the deposited data

How the results depend on the processing

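Depth limits what can be said of Lypd2 and Ly6k, and 3 tumours per group limit the rest. The number of genes called was 954 by edgeR, 3653 by DESeq2, 2142 by limma voom, 1759 without a filter on low counts, 2852 with scaling on pan-epithelial genes and 228 with sex as a covariate, and it ran from 22 to 1575 when 1 tumour was left out (1575 without S1, 22 without B1). The number of members called was 1, against 6 by DESeq2, 4 with pan-epithelial scaling and 0 to 3 when 1 tumour was left out (0 without B1, B2, B3 or S2, and 3 without S1). Pan-epithelial scaling without S1, run after the data were seen, called 5234 genes and 5 members (22.2% of the genes tested). The causes of these differences were not tested. Pan-epithelial scaling moved the median over all genes from 0.04 to -0.33 on the log2 scale and the share of calls that were higher from 61.3% to 16.8% (upper-quartile scaling called 508 higher and 466 lower, with a median of -0.06). Beside that shift, Slurp1 was at -5.87, Lypd3 at -1.61, Lypd5 at -1.62, Ly6d at -1.72 and Ly6a at 0.86.

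Over all alternatives, 14 of the members' log2 fold changes passed the threshold where the main one had not, 4 lost it (all of Slurp1) and 11 changed sign. The sign changes were Ly6c1 with limma voom (-0.02), without S1 (-0.25, within -0.25 to 1.68 when 1 tumour was left out) and without S1 under pan-epithelial scaling (-0.74), and Ly6k with limma voom (-1.49), upper-quartile scaling (-0.08), pan-epithelial scaling (-0.22), sex as a covariate (-0.55), without S1 under pan-epithelial scaling (-2.85) and with 1 tumour left out (-2.33 to 1.24). None of these was past the threshold. No value could be had for Lypd2 and Ly6k with filterByExpr, which removed them. No paired analysis was possible because the columns carry no replicate number.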
